A study of Homo sapiens with 4 samples.

Results

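The coat of lipid droplets was followed in 2 human lung adenocarcinoma cell lines through 10 genes, all of which were found by name in the deposited tables among 43622 genes. They are the 5 perilipins (PLIN1 to PLIN5), the 3 CIDE genes (CIDEA, CIDEB and CIDEC), and HILPDA and G0S2, which encode inhibitors of droplet lipolysis. The lines were A549 and H1993, each grown attached to the dish (adherent culture) and as floating spheroids, a culture that the study equates with cancer stem cells. The labels name no drug, knockdown or other genetic change for any of these libraries. The study set out to compare triacylglycerol synthesis between the cultures. There were 4 libraries, 1 per line and culture, so a difference between 2 libraries has no replicate check and compares those libraries, not the conditions. Where 4 values are given in a row below, their order is A549 adherent, A549 spheroid, the library labelled H1993 adherent, H1993 spheroid. Total exonic reads lay between 15331121 and 17681746 per library. Intervals in brackets are 95% counting intervals. PCR copies of a molecule are not marked in these counts, so intervals and read floors cover counting error only.

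A lipid droplet is a store of triacylglycerol and sterol ester inside a single layer of phospholipid. Perilipins bind to that surface and limit the access of lipases. PLIN2 and PLIN3 are found in most cell types, PLIN1 and PLIN4 mainly in adipocytes, and PLIN5 in tissues that oxidise much fat. CIDE proteins gather where droplets touch and help them to fuse or to load lipoproteins. The first step of triacylglycerol breakdown is carried out by PNPLA2 (adipose triglyceride lipase), whose coactivator is ABHD5, and both G0S2 and HILPDA inhibit PNPLA2. HILPDA is a target of hypoxia-inducible factors, and PLIN2, PLIN1, CIDEC and G0S2 are known targets of the PPAR nuclear receptors.

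The start regions of 3 perilipins are shown first, as examples of 3 patterns of exonic reads described later. PLIN2 was higher in both spheroid libraries, PLIN3 differed little, and PLIN1 was higher in A549 spheroids than in the other libraries. The sequences are from RefSeq (GRCh38.p14), on the minus strand and written 5′ to 3′. They begin 250 bases before the RefSeq start and stop 25 bases into the outermost exon that GENCODE release 29 lists there. They cover chr9:19127552-19127742 for PLIN2, chr19:4867744-4867917 for PLIN3 and chr15:89679403-89679617 for PLIN1. Capitals mark ACGTG or GCGTG on either strand, the core letters that hypoxia-inducible factors recognise.
PLIN2: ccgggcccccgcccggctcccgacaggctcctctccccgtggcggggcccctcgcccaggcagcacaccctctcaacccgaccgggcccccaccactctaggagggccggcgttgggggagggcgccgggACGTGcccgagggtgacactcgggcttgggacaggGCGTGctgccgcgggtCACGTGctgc
PLIN3: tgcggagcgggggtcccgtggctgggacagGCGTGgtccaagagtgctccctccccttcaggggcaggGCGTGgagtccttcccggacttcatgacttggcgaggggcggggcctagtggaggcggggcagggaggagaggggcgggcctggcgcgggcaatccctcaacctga
PLIN1: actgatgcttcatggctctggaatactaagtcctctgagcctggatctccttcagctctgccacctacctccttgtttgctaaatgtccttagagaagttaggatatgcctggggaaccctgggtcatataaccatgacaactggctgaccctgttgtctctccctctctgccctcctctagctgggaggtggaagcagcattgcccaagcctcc
The PLIN2 window of 300 bases, 250 before to 50 after the start, held ACGTG 3 times. Counted from the start, the first copy began at position -120, and the other two lay on opposite strands of a single CACGTG that began at -69, sharing all but their end letters. ACGTG was in 21.4% of 35116 RefSeq windows of that length, and 3 or more copies were in 1.98%. GCGTG was found 2 times in the PLIN2 window and 3 times in the PLIN3 window, with 1 copy of each gene past the printed stretch, and it was in 36.5% of all windows. The PLIN1 window held neither. RefSeq windows were at hand for 9 of the 10 genes, with HILPDA not among them. GCGTG was found in 5 of these 9 genes, with the most copies, 4, in G0S2, and ACGTG in PLIN2 alone. AGGTCA, the PPAR half-site, was in none of the 11 windows of the 9 genes (13.8% of all windows). Nor was the full direct repeat, AGGTCA in a row with 1 base between the copies (0.0228% of all windows). GGAATG, the letters bound by TEAD factors, was in 1 window of CIDEB and in 14.0% of all windows. These are matches of letters in short windows and say nothing of binding.

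The library labelled H1993 adherent stood apart from its label. Pearson's r of log2 levels across 15273 genes was 0.947 between it and A549 adherent cells, and 0.846 between it and H1993 spheroids. Genes are not independent replicates, so the correlations are descriptions. A fold of at least 2 separated it from A549 adherent cells at 13.3% of genes and from H1993 spheroids at 35.7%. MET, which encodes a growth factor receptor, stood at 140, 112, 182 and 869 TPM in the 4 libraries. Other genes separated this library from A549: the tumour suppressor CDKN2A had 0, 0, 75 and 308 reads, and the lung transcription factor NKX2-1 had 0, 0, 12 and 13. TPM, transcript abundance scaled by exon length and to the same total in each library, is the authors' unit and the only scale on which levels of different genes are compared here. The H1993 culture fold of each gene but CIDEA and PLIN5, which have 3 reads or fewer in both libraries, is also given with A549 adherent cells in place of this library, a comparison that differs in line as well as in culture. Keratins and EPCAM were present in all libraries, with a summed level between 3109 and 10201 TPM for 6 epithelial markers. The labels call all libraries lung epithelial, but lung markers were nearly absent, between 0.978 and 2.35 TPM for 6 genes, and SFTPA1 and SCGB1A1 had 0 reads throughout.

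PLIN2 was the gene of the family that differed most in reads between cultures. It had 583 exonic reads in the adherent and 11878 in the spheroid library of A549. In the H1993 pair it had 1530 in the library labelled adherent and 9190 in the spheroid library. Both spheroid libraries were above both adherent libraries. The levels were 24.9, 450.0, 59.0 and 423.5 TPM in that order, so that PLIN2 moved from rank 5598 among all genes in A549 adherent cells to rank 234 in A549 spheroids, and stood at ranks 2394 and 277 in the other two. On the log2 scale the spheroid library was higher by 4.28 (4.17 to 4.41) in A549 and by 2.77 (2.69 to 2.85) in the H1993 pair. With A549 adherent cells as the reference, H1993 spheroids were higher by 4.03 (3.91 to 4.16). PLIN2 (ENSG00000147872) lies on chromosome 9 at 19108375 to 19149290 (hg38, minus strand). In bulk RNA, more expressing cells and more RNA per cell cannot be told apart.

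PLIN3, a perilipin that is also soluble in the cytosol and moves onto nascent droplets, differed little in exonic reads. It had 1168, 1416, 1554 and 1868 exonic reads, or 90.2, 97.0, 108 and 156 TPM. The log2 fold of spheroid over adherent was 0.21 (0.10 to 0.33) in A549 and 0.45 (0.35 to 0.55) in the H1993 pair, beyond counting error and under a fold of 2. Against A549 adherent cells it was 0.73 (0.63 to 0.84) in H1993 spheroids. PLIN3 (ENSG00000105355) lies on chromosome 19 at 4838341 to 4867768 on the minus strand. PLIN4 and PLIN5 lie on the same chromosome and strand, at 4502180 to 4518465 and at 4522531 to 4535224.

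**Figure D1:**
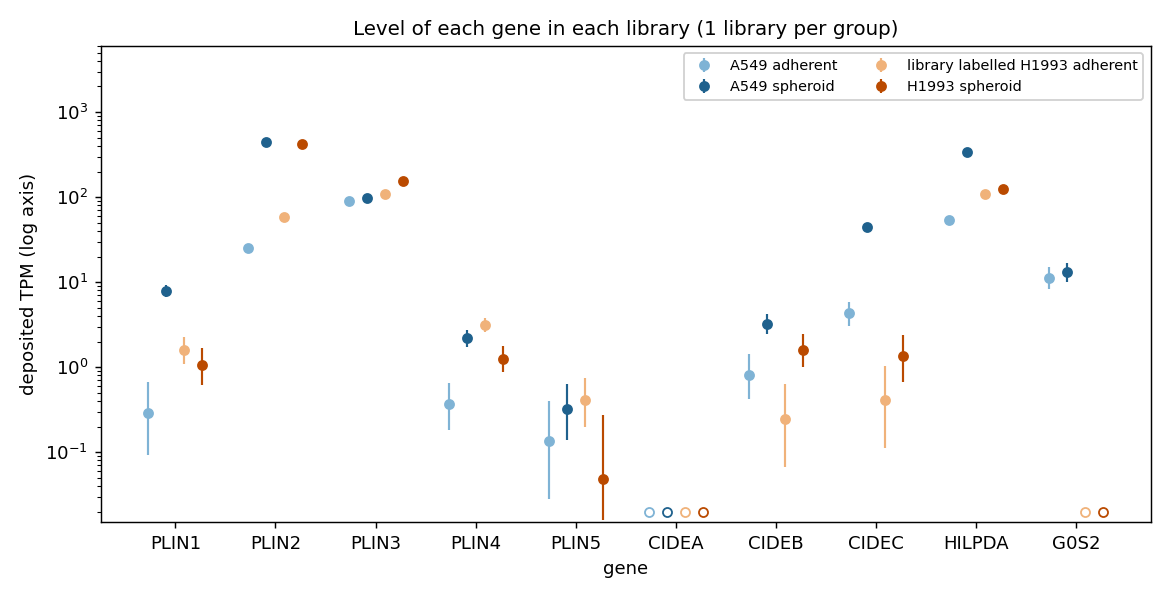
Deposited TPM on a log axis for each of the 10 genes in each library, 1 point per library with a 95% counting interval (hidden by the point where it is narrow) and open circles for 0 reads. PLIN2 stands at 450.0 and 423.5 TPM in the spheroid libraries and at 24.9 and 59.0 TPM in the adherent ones, while PLIN3 lies between 90.2 and 156 TPM.

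The most abundant perilipin was PLIN3 in both adherent libraries and PLIN2 in both spheroid ones. PLIN3 made up 77.8% of the summed perilipin TPM in A549 adherent cells and 62.8% in the library labelled H1993 adherent. PLIN2 made up 80.7% in A549 spheroids and 72.8% in H1993 spheroids. The summed level of the 5 perilipins was 116, 557, 173 and 581 TPM. Per exon length, the ratio of PLIN2 to PLIN3 was 0.276 (0.250 to 0.305), 4.64 (4.39 to 4.91), 0.545 (0.507 to 0.585) and 2.72 (2.59 to 2.86) in the same order. No intervals overlapped, and the ratio was above 1 in the spheroid libraries alone. PLIN1, PLIN4 and PLIN5 together stayed a small part of the sum, with PLIN4 in the library labelled H1993 adherent the largest of them at 1.84%.

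**Figure D2:**
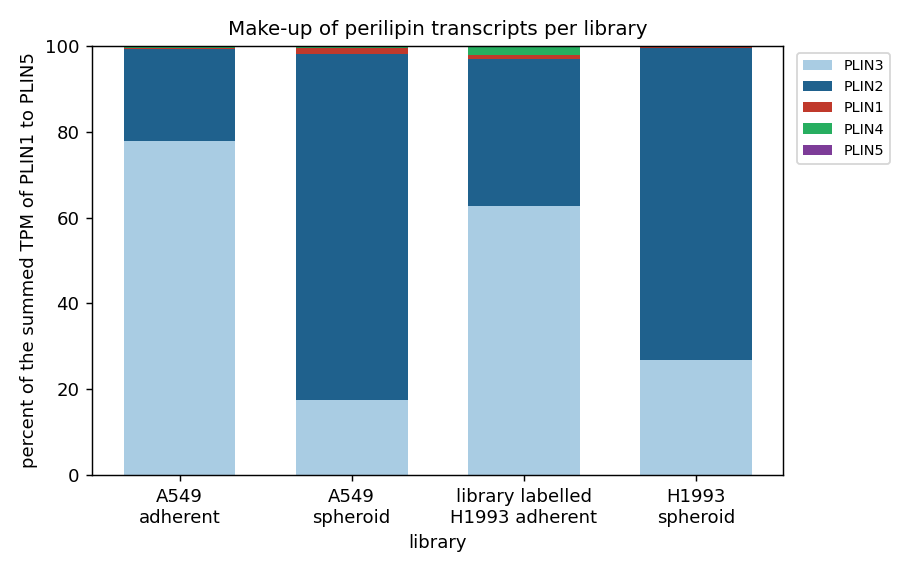
Stacked bars give each perilipin's percent of the summed TPM of PLIN1 to PLIN5 in each library, 1 library per bar with no error. PLIN3 holds 77.8% and 62.8% in the adherent libraries, and PLIN2 holds 80.7% and 72.8% in the spheroid ones.

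PLIN1, the main droplet coat of the adipocyte, was low in 3 libraries and stood out in A549 spheroids. It had 5 exonic reads in A549 adherent cells and 154 in A549 spheroids, and 31 and 17 in the H1993 pair. The A549 spheroid level was 7.82 TPM against 0.286 in adherent cells, a log2 fold of 4.43 (3.63 to 6.52). In the H1993 pair the spheroid library was not distinguishable from the other at this depth (-0.63, -1.63 to 0.21). Against A549 adherent cells, H1993 spheroids stood at 1.50 (0.32 to 3.61), the opposite sign. PLIN1 (ENSG00000166819, chromosome 15, 89664365 to 89679427) shares 1664 bases with PEX11A on the same strand. PEX11A had 94, 434, 207 and 232 reads in the 4 libraries, and 5, 152, 29 and 17 of the PLIN1 reads were counted as unique.

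PLIN4 had the opposite direction in the 2 lines as labelled. PLIN4 (ENSG00000167676), which coats small droplets in adipocytes and muscle, had 11 exonic reads in A549 adherent cells and 74 in A549 spheroids. The library labelled H1993 adherent had 105 and the H1993 spheroid library 35. The A549 spheroid library was higher by 2.49 (1.76 to 3.75) on the log2 scale, and H1993 spheroids stood at -1.35 (-2.00 to -0.84) against the library with their adherent label. With A549 adherent cells in its place the value was 1.56 (0.71 to 2.85). PLIN4 was thus lowest in A549 adherent cells and highest in the library labelled H1993 adherent, at 0.368 and 3.17 TPM. PLIN5 (ENSG00000214456), a perilipin that ties droplets to mitochondria, was near the floor of 3 reads, with 3, 8, 10 and 1 exonic reads in the same order. It did not pass the filter on low counts, and its A549 log2 fold of 0.96 had an interval from -0.71 to 3.90. The H1993 value, from 10 reads and 1, was -1.89 (-8.58 to -0.32).

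Among the CIDE genes, CIDEC had the most reads, nearly all of them in A549. CIDEC (ENSG00000187288, chromosome 3, 9866711 to 9880254, minus strand) promotes the growth of large droplets and works with PLIN1 in adipocytes. It had 38 exonic reads in A549 adherent cells and 449 in A549 spheroids, against 4 and 11 in the H1993 pair. The levels were 4.29, 44.9, 0.407 and 1.34 TPM, so that both A549 libraries lay above both H1993 libraries. The A549 log2 fold was 3.43 (3.02 to 4.02), and the H1993 one was 1.25 with an interval that held no change (-0.11 to 3.75). Against A549 adherent cells, H1993 spheroids were lower at -1.58 (-2.85 to -0.74).

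CIDEB (ENSG00000136305, chromosome 14, 24305096 to 24311430, minus strand), known from lipoprotein secretion in liver, was low throughout. Its exonic reads were 12 and 54 in A549 adherent cells and spheroids, and 4 and 22 in the library labelled H1993 adherent and H1993 spheroids. The spheroid library of each pair was higher, by 1.94 (1.19 to 3.15) and 2.14 (1.09 to 4.64) on the log2 scale. Against A549 adherent cells H1993 spheroids stood at 0.83 (-0.15 to 2.08), within counting error. CIDEB overlaps NOP9 and LTB4R2 on the opposite strand. Of these NOP9 had between 959 and 1433 reads, and whether the counting used strand is not given in the sources used here. CIDEA (ENSG00000176194, chromosome 18, 12254319 to 12277595), typical of brown fat, had 0 exonic reads in all 4 libraries, which allows up to 3 reads, or 0.170 to 0.196 CPM (reads scaled by library size).

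HILPDA, a small droplet protein that inhibits PNPLA2, was high in every library and highest in A549 spheroids. It had 515 exonic reads in A549 adherent cells and 3659 in A549 spheroids. The H1993 pair held 1145 in the library labelled adherent and 1114 in the spheroid one. The levels were 54.1, 341, 108 and 126 TPM. The A549 log2 fold was 2.76 (2.63 to 2.90), and that of the H1993 pair was 0.14 (0.02 to 0.26). Against A549 adherent cells, H1993 spheroids were higher by 1.16 (1.02 to 1.32), and so was the library labelled H1993 adherent, by 1.02 (0.87 to 1.18). HILPDA (ENSG00000135245, chromosome 7, 128455849 to 128458418) lies wholly inside 2 uncharacterised transcript models on its strand. Only 1, 7, 3 and 4 of its exonic reads were counted as unique, so its values rest on how shared reads were assigned. With the 3 models summed, a choice made after seeing the data, the A549 fold was 2.61 (2.49 to 2.74), the H1993 fold 0.09 (-0.03 to 0.21), and the difference between the adherent libraries 0.93 (0.79 to 1.08), under a fold of 2.

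G0S2, the other PNPLA2 inhibitor, had reads in both A549 libraries and none in either H1993 library. G0S2 (ENSG00000123689, chromosome 1, 209675420 to 209676388) had 45 exonic reads in A549 adherent cells and 59 in A549 spheroids, or 11.3 and 13.1 TPM, and 0 in both others. The A549 culture fold was 0.32 (-0.26 to 0.92), within counting error. Against a floor of 3 reads, H1993 spheroids were at least 18.1-fold lower than A549 spheroids, and the library labelled H1993 adherent was at least 16.4-fold lower than A549 adherent cells. H1993 spheroids were at least 14.4-fold lower than A549 adherent cells.

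Set against the lipase they inhibit, the 2 inhibitors differed. PNPLA2 had 898, 1660, 1023 and 1629 exonic reads. Its log2 fold was 0.82 (0.71 to 0.94) in A549 and 0.85 (0.74 to 0.97) in the H1993 pair, both under a fold of 2. Per exon length, HILPDA stood to PNPLA2 at 1.06 (0.954 to 1.19) in A549 adherent cells and at 4.09 (3.86 to 4.34) in A549 spheroids. In H1993 the order was the other way, 2.08 (1.91 to 2.26) in the library labelled adherent and 1.27 (1.18 to 1.37) in spheroids. G0S2 stood to PNPLA2 at 0.222 (0.161 to 0.300) and 0.158 (0.120 to 0.204) in A549. Intervals of the A549 G0S2 ratios overlapped, and those of the HILPDA ratios did not. PLIN2 stood to PNPLA2 at 0.491 and 5.41 in A549 adherent cells and spheroids, and at 1.13 and 4.26 in the H1993 pair. ABHD5 had 125, 95, 129 and 151 reads, and its fold passed the limit of 2 in neither line.

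Within each library the order of levels per length was as follows, where neighbours with overlapping counting intervals are not ordered. In A549 adherent cells PLIN3 was followed by HILPDA, PLIN2, G0S2 and CIDEC, and then by CIDEB, PLIN4, PLIN1 and PLIN5, which did not separate from their neighbours. In A549 spheroids the order was PLIN2, HILPDA, PLIN3, CIDEC, G0S2 and PLIN1, then CIDEB and PLIN4 with overlapping intervals, and PLIN5. In the library labelled H1993 adherent HILPDA and PLIN3 had overlapping intervals and were followed by PLIN2, PLIN4 and PLIN1. In H1993 spheroids PLIN2 was followed by PLIN3 and HILPDA, and then by CIDEB, CIDEC, PLIN4 and PLIN1 without separation between neighbours. PLIN2, PLIN3 and HILPDA filled the first 3 places in all 4 libraries.

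In A549, spheroid culture was set against adherent culture. A gene counted as higher or lower when it passed the filter on low counts, its fold was at least 2 and its counting interval held no value of no change. By this rule 6 of the 10 genes were higher in spheroids (PLIN1, PLIN2, PLIN4, CIDEB, CIDEC and HILPDA) and 0 lower, where 12.4% of all 15273 genes tested were higher and 10.3% lower. The filter kept 8 of the 10 genes, and PLIN5 and CIDEA, which it left out, count as neither. The median log2 fold was 2.49 over the 9 genes with a value, against 0.00 over all genes tested. PLIN3 and G0S2 were the kept genes that stayed under the limit. No member stood below 0.

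In the H1993 pair as labelled, 2 genes were higher in spheroids (PLIN2 and CIDEB) and 1 was lower (PLIN4). Of all genes tested, 17.0% were higher and 18.0% lower, so the family's counts lie near those of all genes. The median over the 8 genes with a value was 0.30. With A549 adherent cells as the reference, 4 were higher (PLIN1, PLIN2, PLIN4 and HILPDA) and 2 lower (CIDEC and G0S2), where 17.9% and 18.3% of all genes were. PLIN2 was higher in spheroids with either reference and in both lines.

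**Figure D3:**
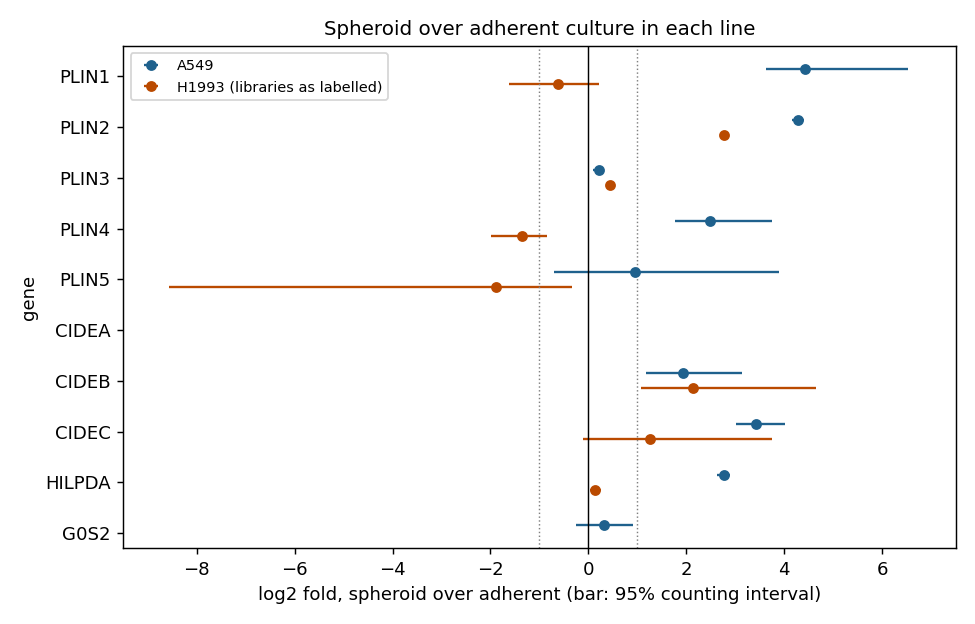
Log2 fold of spheroid over adherent for each gene in A549 (blue) and in the H1993 pair as labelled (orange), with bars for 95% counting intervals and dotted lines at a fold of 2. PLIN2 lies right of the dotted line in both, at 4.28 and 2.77, and PLIN4 lies on opposite sides, at 2.49 and -1.35.

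**Figure D4:**
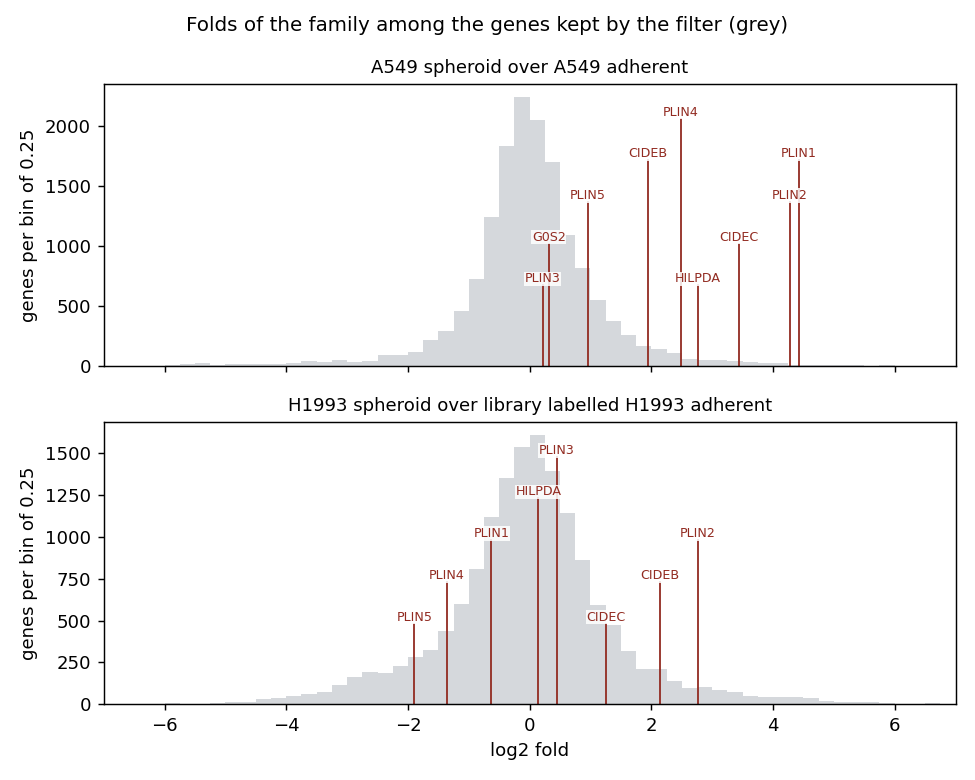
The grey histograms give the log2 folds of the 15273 genes kept by the filter in bins of 0.25, for A549 above and the H1993 pair below, and red lines mark the family, with line heights that carry no value. In A549 the 6 genes counted as higher lie between 1.94 and 4.43, and in the H1993 pair the family spreads from -1.89 to 2.77.

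The A549 fold exceeded the H1993 fold beyond counting error for PLIN1, PLIN2, PLIN4, PLIN5 and HILPDA. These differences were estimated from the counts without a prior count, so they are not the subtraction of the folds above. The difference of the 2 log2 folds was 5.56 (3.91 to 7.41) for PLIN1, 1.52 (1.37 to 1.66) for PLIN2, 4.09 (2.96 to 5.29) for PLIN4 and 2.62 (2.44 to 2.80) for HILPDA. For PLIN5, which did not pass the filter and had at most 10 reads in a library, it was 4.49 (0.63 to 10.1). For PLIN3 it was -0.23 (-0.38 to -0.08). For CIDEC it was 1.86 (-0.32 to 3.69) and for CIDEB -0.54 (-2.77 to 1.39), both within counting error. All of these use the library labelled H1993 adherent and have no counterpart without it. They compare 4 libraries and carry no replicate error. The share of all genes with such a difference was not counted, so the list of genes is not read as a result about the family.

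The spheroid libraries of the 2 lines were close in PLIN2 and far apart in CIDEC and PLIN1. PLIN2 in H1993 spheroids stood at -0.25 (-0.29 to -0.21) against A549 spheroids on the log2 scale. By the size rule 5 genes were lower in H1993 spheroids and 0 higher, where 19.1% of all genes tested were lower and 18.0% higher. CIDEC stood at -5.01 (-6.25 to -4.38), PLIN1 at -2.93 (-3.88 to -2.34), HILPDA at -1.60 (-1.70 to -1.50) and CIDEB at -1.11 (-1.96 to -0.44). G0S2 had 0 reads in H1993 spheroids, so only the bound given above applies. PLIN4 was just under the limit, at -0.93 (-1.59 to -0.36). The PLIN3 value was 0.52 (0.42 to 0.62). This comparison does not use the library labelled H1993 adherent.

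Between the adherent libraries, the one labelled H1993 was higher for PLIN1, PLIN2, PLIN4 and HILPDA and lower for CIDEC and G0S2. Those are 4 and 2 of the 10 genes, where 6.94% of all genes tested were higher and 5.49% lower. PLIN4 differed by 2.92 (2.23 to 4.17), PLIN1 by 2.12 (1.13 to 4.22) and PLIN2 by 1.26 (1.12 to 1.40). CIDEC stood at -2.83 (-5.32 to -1.90). The HILPDA call is lost when the overlapping models are summed, as given above.

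The lines served as replicates of culture in the only test the design allows, edgeR's quasi-likelihood test with culture and line as terms and 1 residual degree of freedom. None of the 8 family genes that the filter kept passed, and PLIN5 and CIDEA were not tested. In either direction 0.0% of the 15273 genes tested passed at an adjusted p under 0.05, and 1258 genes (8.24%) had an unadjusted p under 0.05. PLIN2 had a log2 fold of 3.53, an unadjusted p of 0.00129 and an adjusted p of 0.303 in edgeR. CIDEC (2.74, unadjusted p of 0.0223) and CIDEB (2.32, unadjusted p of 0.0370) were the other genes of the family with an unadjusted p under 0.05 in edgeR. Their adjusted p-values in edgeR were 0.515 and 0.575. Without the library labelled H1993 adherent, and so without the line term, edgeR gave PLIN2 a log2 fold of 4.16 and an adjusted p of 0.999. DESeq2 with the same terms called 335 genes higher (2.28%) and 256 lower (1.74%), among them PLIN2 as the only gene of the family, with an adjusted p of 2.4e-06. In edgeR without the filter PLIN2 again was the only one of the family to pass, where 0.502% of 25304 genes were higher and 0.182% lower. By the size rule the spheroid library was the higher one in 2 of 2 lines for PLIN2 and CIDEB. Of all genes tested, 12.4% were higher in the A549 pair and 17.0% in the H1993 pair. The share higher in both pairs, against which such joint calls would be read, was not counted. The 2 joint calls are therefore not read as a result about the family. The CIDEB calls rest on 12 and 54 reads in A549 and on 4 and 22 in the H1993 pair. With A549 adherent cells as the reference, H1993 spheroids stood at 0.83 (-0.15 to 2.08) for CIDEB.

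Intronic reads, a separate count in the same libraries, gave PLIN2 the same direction. They numbered 32 and 380 in A549 adherent cells and spheroids, a log2 fold of 3.43 (2.98 to 4.08), and 67 and 480 in the H1993 pair, a log2 fold of 2.98 (2.65 to 3.42). Against A549 adherent cells, H1993 spheroids stood at 3.88 (3.44 to 4.53). Introns held 5.20% (3.59 to 7.27) of PLIN2 gene reads in A549 adherent cells and 3.10% (2.80 to 3.42) in A549 spheroids. In the H1993 pair they held 4.20% (3.27 to 5.30) in the library labelled adherent and 4.96% (4.54 to 5.42) in spheroids. Between the spheroid libraries the intronic fold of H1993 over A549 was 0.45 (0.26 to 0.65), opposite in sign to the exonic value of -0.25. PLIN3 introns had 11, 29, 33 and 52 reads. Reads across exon junctions, which come from spliced RNA, numbered 165, 3203, 399 and 2419 for PLIN2. For CIDEC they numbered 12, 144, 2 and 3, and for PLIN1 1, 34, 2 and 5. PLIN1 introns had 1, 24, 1 and 8 reads, CIDEC introns 2, 17, 2 and 0, and CIDEB introns 6, 5, 4 and 11. For PLIN1 in the H1993 pair the intronic fold was 1.84 (0.28 to 8.66), opposite in sign to the exonic -0.63. For CIDEB in A549 it was -0.24 (-2.38 to 1.65), where the exonic fold was 1.94.

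Other genes of droplet biology were read in A549 in the same way, where 12.4% of all genes tested were higher and 10.3% lower. Of 19 other droplet proteins, 17 had at least 10 reads in a library of the pair, and 2 of them were higher and 2 lower, with a median log2 fold of 0.29. BSCL2 (seipin, which shapes nascent droplets) stood at 1.68, and the caveolar proteins CAVIN1 and CAV1 at -1.56 and -1.43. Of 7 lipolysis genes, 1 was higher and 2 lower, with a median of 0.22. PNPLA3, a lipase relative that binds droplets, stood at 1.81 and MGLL, which cleaves monoacylglycerol, at -1.35. Of 17 triacylglycerol synthesis genes, 14 were measured, 2 were higher and 0 lower, with a median of 0.42. These were DGAT2, which adds the last fatty acid, at 2.03, and LPIN1, a phosphatidate phosphatase, at 1.33.

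Known targets of PPAR and of hypoxia-inducible factors were counted in the same pair. Of 14 measured PPAR targets out of 19 listed, 8 were higher and 0 lower, with a median of 1.36, among them the fatty acid transporter CD36 at 4.63. Of 22 hypoxia targets outside the family, 17 were higher and 0 lower, with a median of 1.49. NDRG1 stood at 4.57 and EGLN1, the oxygen sensor, at -0.14. ANGPTL4, a secreted inhibitor of lipoprotein lipase at 4.27, is in both lists. Among 12 regulators, 2 were higher, PPARA at 1.82 and the sterol receptor NR1H3 at 1.41, while HIF1A stood at -0.95 and PPARG at -0.31. No test of these lists against other genes was made. 

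In the H1993 pair as labelled, where 17.0% of all genes tested were higher and 18.0% lower, the lists had calls in both directions. Of 17 measured droplet proteins, 3 were higher and 4 lower, with a median of 0.23. TMEM159, a partner of seipin now named LDAF1, stood at 2.85 and METTL7B at -4.35. Of 7 lipolysis genes, 1 was higher (PNPLA3 at 1.77) and 1 lower (ABHD6 at -1.47), with a median of 0.56. Of 14 measured synthesis genes, 4 were higher and 4 lower, with a median of 0.43. The acyltransferase GPAT2 stood at 3.41, DGAT1, the other enzyme of the last step, at 2.07 and GPAT3 at -2.57. Of 13 measured PPAR targets, 3 were higher and 1 lower, with a median of 0.35. FABP4, with 0 and 905 reads, is measured but was not kept by the filter and so is not counted as higher. CD36 stood at 5.98 and PDK4, a brake on pyruvate oxidation, at -1.27. Of 22 hypoxia targets, 8 were higher and 2 lower, with a median of 0.58, NDRG1 at 3.88 and the carbonic anhydrase CA12 at -1.98. The regulators had 6 higher and 1 lower of 11 measured, with EPAS1, an alpha subunit of hypoxia-inducible factor, at 2.32 and HIF1A at -1.84. With A549 adherent cells as the reference, 6 of 14 PPAR targets were higher and 1 lower, and 9 of 22 hypoxia targets were higher and 2 lower, beside 17.9% and 18.3% of all genes tested.

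**Figure D5:**
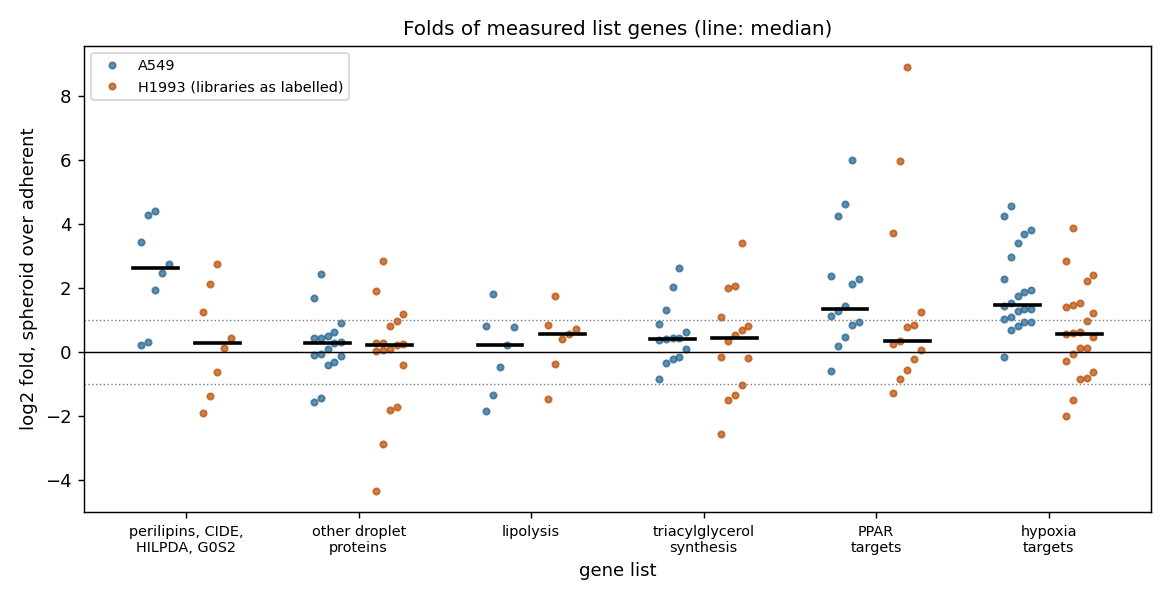
Each point is the log2 fold of spheroid over adherent of 1 gene with at least 10 reads in a library of the pair, for A549 (blue) and the H1993 pair as labelled (orange), with black lines at the median and dotted lines at a fold of 2; points of genes with 0 reads in 1 library depend on the prior count. Hypoxia targets have medians of 1.49 and 0.58, and PPAR targets 1.36 and 0.35.

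Markers of other cell types were read beside these results, and their part in them was not tested. The adipocyte hormone ADIPOQ had 0 reads in all 4 libraries and LEP 0, 4, 0 and 0. The summed level of 10 adipocyte markers was 130, 381, 239 and 318 TPM. Most of the A549 spheroid sum was CFD, a complement protease, at 329 TPM. FABP4, a fatty acid carrier of adipocytes and a PPAR target, had 0, 1, 0 and 905 reads. The fibroblast list summed to between 9.36 and 35.6 TPM, and the endothelial list to between 0.366 and 3.22 TPM. The blood cell list summed to between 34.2 and 137 TPM, with CD68 the largest at 131 TPM in A549 spheroids, while PTPRC had 0, 0, 0 and 45 reads and HBB 0 throughout.

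The genes whose pattern over the 4 libraries was most like that of PLIN2 were NFATC4, a transcription factor, SYTL5 and ALDOC, a glycolytic aldolase. Likeness was the Euclidean distance of log2 levels centred over the 4 libraries, taken over 12322 genes, and these distances were 0.277, 0.383 and 0.537. For CIDEC they were TNFRSF19 (0.335), ANPEP (0.651) and C9orf152 (0.682), and for HILPDA ARG2 (0.223), ISG20 (0.279) and the readthrough gene TVP23C-CDRT4 (0.284). NFATC4 had 15, 285, 33 and 209 reads. With 4 libraries, many genes can share a pattern.

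Genes next to the members on their chromosomes were read as a comparison. The 10 nearest kept genes around PLIN2, 5 on each side, had a median log2 fold of 0.59 in A549 (range -3.00 to 2.49) and -0.40 in the H1993 pair (-3.61 to 2.81). The A549 fold of PLIN2, 4.28, lay above that range and its H1993 fold of 2.77 within it. Around CIDEC the A549 median was 0.58 (-0.32 to 1.55), and around HILPDA -0.01 (-0.72 to 1.80). Both genes lay above their neighbours in A549. Around PLIN1 the A549 median was 0.36, with a range of -4.29 to 4.06. The PLIN1 fold of 4.43 was above it, but its interval (3.63 to 6.52) covered the top of that range. The CIDEB folds lay within the ranges of its neighbours, -0.94 to 4.02 in A549 and -2.08 to 2.77 in the H1993 pair.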

How the data were processed

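Messenger RNA of 4 libraries was sequenced with a stranded kit and limited PCR cycles, per the labels' protocols, and the labels gave line and culture. The reads were mapped to hg38, per the submitters' processing notes. The aligner, the counter, its use of strand and the annotation are each not given in sources used here. Per the file headers, each deposited table of 43622 genes holds whole-number read counts (exonic, intronic, junction, total and unique), TPM, RPKM and, as a fraction, the share of unique and of intronic reads. Exonic and intronic counts added up to the gene count in every row. RPKM and the deposited fraction columns entered no comparison.

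Genes were kept by filterByExpr of edgeR 4.0.16 (R 4.3.3) with line and culture in the design, which left 15273, and scaled by TMM. Folds used a prior count of 2. Their 95% intervals are exact Clopper-Pearson intervals. A gene at 0 reads was bounded at a floor of 3 reads in that library. Over both lines glmQLFTest was run with Benjamini-Hochberg adjustment, and DESeq2 1.42.0 was the alternative. Other alternatives were scaling by library size, DESeq2 size factors, unique and total gene reads, a prior count of 0.5, no filter, the ratio of TPM, and another adherent reference. Summing the gene models over HILPDA was added after seeing the data.

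The genes and lists were chosen with earlier results of these data known. Named were all 10 genes, of other lists at most 3 extremes a comparison with at least 100 reads, and the 3 most similar genes of 3 members. Marker genes, MET, PNPLA2, ABHD5 and PPARG were added for their role, after their values were seen. Symbols and positions are those of the files. The labels do not say whether libraries come from separate cultures.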

Additional observations from a re-analysis of the deposited data

Results flagged for a closer look

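PLIN4 differed in direction between the lines. The log2 fold of spheroid over adherent was 2.49 in A549 and -1.35 in the H1993 pair as labelled, each from 1 library a side with 11 to 105 reads. The difference was not tested, since there is 1 library per line and culture. With A549 adherent cells as the reference, H1993 spheroids stood at 1.56, a comparison that differs in line as well as in culture. The opposite direction was seen only with the library labelled H1993 adherent as the reference, and the cause was not tested.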

How the results depend on the processing

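Over the alternatives, 240 values of single genes between 2 libraries kept their direction and their side of the limit, 6 fell under it, 5 passed it and 3 reversed. With A549 adherent cells in place of the library labelled H1993 adherent, the count of family genes past the limit in H1993 went from 3 to 6. The reversed values, all under that setting, were PLIN1 at 1.50, PLIN4 at 1.56 and CIDEC at -1.58. With unique reads alone HILPDA lost its calls, at 1.55 in A549, because nearly all its reads are shared. CIDEB between the spheroid libraries was under the limit with total gene reads, at -0.75. Over both lines, 0 family genes passed in edgeR, and 1, PLIN2, passed without the filter (adjusted p = 0.0144 in edgeR) and 1, again PLIN2, with DESeq2. The counts over all genes were 0 in edgeR, 127 higher and 46 lower in edgeR without the filter, and 335 and 256 with DESeq2. Leaving out 1 library at a time, without the line term, 0 family genes passed. Without H1993 spheroids 42 genes were higher and 116 lower in that fit. All 14 intronic folds kept their side of the limit with unique reads. The cause of these changes was not tested. The line term compares the cultures within each line. A block by replicate number could not be fitted, because the labels carry no such numbers and each group has 1 library. Depth limits the values of PLIN5, CIDEA, CIDEB, CIDEC and G0S2 in H1993, where 22 reads or fewer lie behind each, and of PLIN1 in H1993 spheroids, with 17. It also limits the A549 folds of PLIN1, PLIN4, PLIN5, CIDEA and CIDEB, which had 5, 11, 3, 0 and 12 reads in A549 adherent cells.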
